A study of Mus musculus with 12 samples.

Results

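AS-bright tdT glomerular endothelial cells (GEC) were set against the AS-dim tdT cells, which the study also names GEC, sorted from the same mice. AS mice are a model of Alport syndrome, and the question here was which genes separated the brightly from the dimly labelled cells in the diseased glomerulus. The comparison used 6 of the 12 RNA-seq libraries of the series, 1 bright and 1 dim library from each of 3 AS mice, paired by the mouse. It covered the 15768 genes listed for both populations, of 17811 listed for the dim and 17521 for the bright cells.

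All mice were C57BL/6, 4 month old, and carried the TekCre tdTomato reporter. The AS mice were Col4a5 -/-, and the remaining 6 libraries came from wild type (WT) mice, whose values are given only where the change in AS was tested against that in WT. In this model Cre is driven by the Tek promoter and switches on tdTomato for good in a cell and its descendants. The presence of the label thus marks a history of Cre activity and not, by itself, the present level of Tek. For its intensity, the study reports more Tek RNA and protein in bright than in dim cells of WT mice. It proposes that low Tek led to fewer recombination events in the dim cells. Renal cortices were digested, glomeruli were collected on sieves, and single cells were sorted on the tdTomato signal alone after gates on size and singlets. The reads that the authors counted on genes summed to 11946524 to 13923267 per AS-dim tdT and 14527358 to 15074909 per AS-bright tdT library. Values are given as CPM, counts per M (mega) counts of TMM-scaled library size, in the order of AS mice 1, 2 and 3. Changes are log2 fold changes of bright over dim from edgeR's quasi-likelihood test with the mouse as a block, and a gene was called where the Benjamini-Hochberg adjusted p was below 0.05.

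The glomerular capillary is lined by a thin fenestrated endothelium that rests on a basement membrane of type IV collagen and laminin. Its cells depend on VEGF made by podocytes and are held together by cadherin and claudin junctions. Tek, the receptor of the angiopoietins, is a classic endothelial gene, but Tek-driven Cre is also known to be active in precursors of blood cells, so leukocytes of such mice can carry the label. In RNA, the sorted AS-dim tdT libraries did not bear out their label of endothelial cells as the AS-bright tdT libraries did: the defining endothelial markers were low in them and leukocyte markers were high. For protein, the study reports by flow cytometry that nearly all sorted cells of both populations carried Ehd3 and almost none WT1. It describes this among its results on WT mice. In bulk libraries like these, fewer cells of a type and less RNA per cell cannot be told apart.

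Tek itself (GRCm38 chromosome 4, 94739289 to 94874976, plus strand), a protein-coding gene that overlaps no other in the annotation, had 2.999, 2.55 and 2.28 CPM in the AS-dim tdT and 258, 255 and 240.1 CPM in the AS-bright tdT libraries. The lowest bright library lay far above the highest dim library. The difference was 95.7-fold (log2 fold change 6.58, standard error 0.26, adjusted p = 1.28e-08). The 300 bases around its start site, 250 before and 50 after it (chr4:94739039-94739338, plus strand, RefSeq on GRCm38.p6), are shown because they lie at the native counterpart of the Cre driver, with a match to the GATA core AGATAA in capitals.
Tek: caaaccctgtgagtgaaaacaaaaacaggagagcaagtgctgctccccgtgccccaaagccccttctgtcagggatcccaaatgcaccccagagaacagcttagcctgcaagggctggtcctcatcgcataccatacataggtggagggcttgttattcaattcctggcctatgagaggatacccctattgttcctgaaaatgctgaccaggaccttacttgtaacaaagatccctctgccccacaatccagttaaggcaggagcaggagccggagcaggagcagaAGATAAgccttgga

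The targeted gene Col4a5 (GRCm38 chromosome X, 141475385 to 141689234, plus strand), which encodes the α5 chain of type IV collagen, was counted at 3.56, 1.97 and 1.34 CPM in the AS-dim tdT and 3.06, 6.73 and 3.91 CPM in the AS-bright tdT libraries. The groups overlapped and the change was not called (log2 fold change 0.96, standard error 0.48, adjusted p = 0.107), though it was without AS mouse 1 (1.67, adjusted p = 0.0248). Reads were thus still counted on Col4a5 in the Col4a5 -/- libraries, and as a count per gene does not resolve the altered part, this level does not check the genotype. Col4a5 overlaps other annotated genes, and the counting strand was not stated.

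Of 14052 genes tested, 7755 were called (55.2%), with 4004 higher (28.5%) and 3751 lower (26.7%) in the AS-bright tdT GEC. More than 16-fold differences were reached by 682 genes higher and 615 lower. The median change of all genes tested was 0.02 on the log2 scale, with quartiles of -0.92 and 0.99. The 3 bright libraries lay all above or all below the 3 dim libraries for 62.4% of genes, 4480 above and 4292 below. Of the 7755 called genes, 7689 changed in the same direction in all 3 mice, as did 2569 of the 6297 not called. A test with the mouse as a block favours such genes, so this share is no separate evidence. Genes were also classed by the deposited transcript type, which can differ from the type of the gene. Dlk1, a protein-coding gene, is typed there as a retained intron. Genes typed protein-coding were more often higher (32.2%) than lower (24.4%). Those typed long non-coding, with processed transcripts among them, were called lower in 32.7% and higher in 24.1%, and pseudogenes lower in 28.5% and higher in 6.99%. Of 1457 genes of other types, 22% were higher and 36.7% lower.

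**Figure D1:**
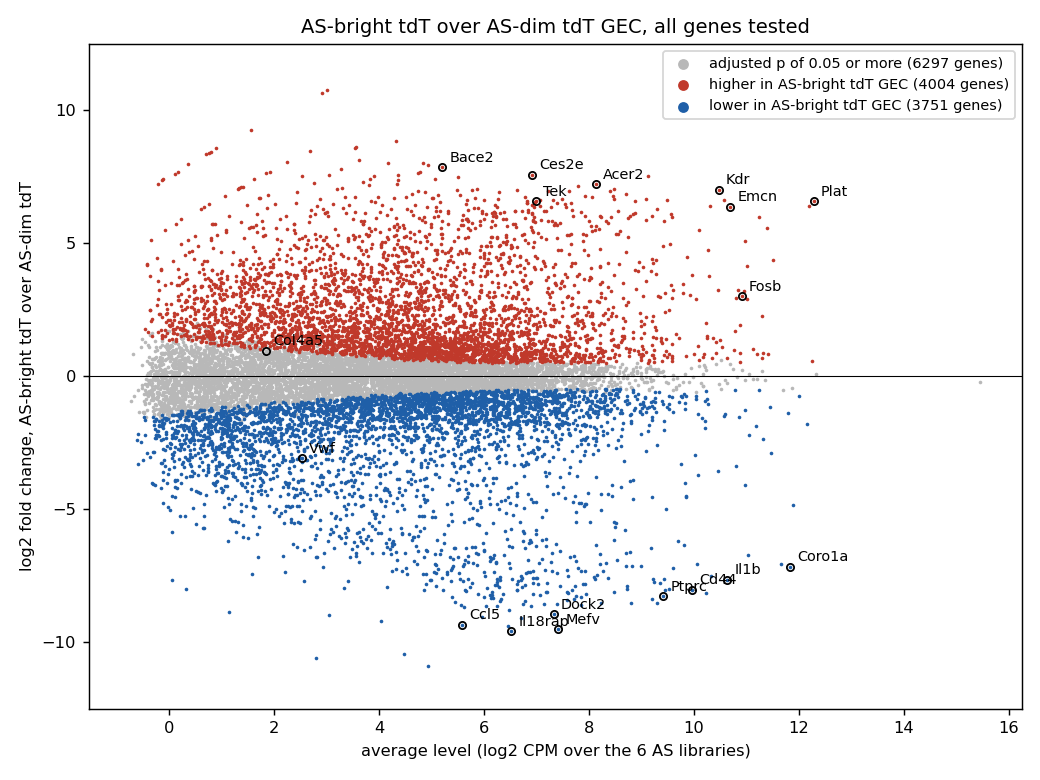
Each point is 1 of the 14052 genes tested, with its average log2 CPM over the 6 AS libraries on the x axis and the log2 fold change, bright over dim, on the y axis. The 4004 genes called higher reach above and the 3751 called lower reach below the 6297 genes not called, with Tek, Kdr and Plat near the top and Ccl5, Mefv and Il18rap near the bottom.

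The genes with the highest changes at an average log2 CPM above 5 included the VEGF receptor Kdr and several enzymes. Bace2, a membrane protease, had 0.139, 0.0822 and 0.709 CPM in the AS-dim tdT and 80.8, 63.8 and 74.8 CPM in the AS-bright tdT libraries (log2 fold change 7.87, standard error 0.44, adjusted p = 3.84e-08). Kdr had 15.8, 27.1 and 21.9 CPM in the AS-dim tdT and 3165, 3168 and 2096 CPM in the AS-bright tdT libraries (log2 fold change 7.03, standard error 0.30, adjusted p = 1.36e-08). Both were far above the dim level in every bright library, and the groups did not overlap for any gene of this set, as its rule required. Ces2e, a carboxylesterase, rose from a mean of 1.24 to 239 CPM (7.59 log2), and AU021092, whose function is not described, from 5.71 to 1115 CPM (7.52 log2). Mpped2, a metallophosphoesterase, rose by 7.50 and Hspa12b, an Hsp70-related protein of endothelial cells, by 7.41 on the log2 scale. Acer2, an alkaline ceramidase, rose by 7.24, and Cyp26b1, which breaks down retinoic acid, rose by 7.15. Ptprg, a receptor tyrosine phosphatase, rose by 7.06 and Dlk1, a non-canonical Notch ligand, by 7.05. Bace2, AU021092, Mpped2, Hspa12b and Ptprg overlap other annotated genes, so that part of their reads could belong to these.

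The genes with the lowest changes included those of a cytokine receptor, an inflammasome protein and a chemokine. Il18rap, a subunit of the interleukin-18 receptor, had 147, 178 and 222 CPM in the AS-dim tdT and 0.0712, 0.388 and 0.213 CPM in the AS-bright tdT libraries (log2 fold change -9.58, standard error 0.37, adjusted p = 1.28e-08). Mefv, which encodes pyrin, had 356, 286 and 378 CPM in the AS-dim tdT and 0.142, 0.324 and 0.924 CPM in the AS-bright tdT libraries (log2 fold change -9.51, standard error 0.37, adjusted p = 1.28e-08). For either gene the lowest dim library lay far above the highest bright library. The chemokine gene Ccl5 had 95.8, 89.7 and 101 CPM in the AS-dim tdT libraries and no more than 3 counts in any AS-bright tdT library, at least 462-fold lower against that floor of 3 counts per library. Stap1, an adaptor of B cell signalling, changed by -9.37 on the log2 scale, Rac2, a small GTPase of blood cells, by -9.03, and its exchange factor Dock2 by -8.94. Runx3, a transcription factor of lymphocytes, changed by -8.67, Il10ra, the interleukin-10 receptor, by -8.64, Dennd1c, a regulator of Rab GTPases, by -8.79, and the long non-coding RNA 4833407H14Rik by -9.10. Stap1, Dock2, Dennd1c, Runx3, Il10ra and 4833407H14Rik overlap other annotated genes.

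The start-site windows of the leading gene of each direction that had a RefSeq entry are shown with the motif matches in capitals. The window of Ces2e (chr8:104926010-104926309, plus strand, GRCm38.p6) held 1 match to the ETS core AGGAAG, on the minus strand. That of Il18rap (chr1:40515112-40515411, plus strand) held 3 ETS cores on the plus strand, 1 of them within a PU.1-type GAGGAAGT, and 1 RUNX core TGTGGT on the minus strand.
Ces2e: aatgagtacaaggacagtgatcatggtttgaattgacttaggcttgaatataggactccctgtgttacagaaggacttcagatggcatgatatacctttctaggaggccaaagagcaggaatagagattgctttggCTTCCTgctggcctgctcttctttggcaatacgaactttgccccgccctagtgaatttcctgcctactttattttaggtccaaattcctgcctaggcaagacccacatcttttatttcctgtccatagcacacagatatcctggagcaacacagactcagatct
Il18rap: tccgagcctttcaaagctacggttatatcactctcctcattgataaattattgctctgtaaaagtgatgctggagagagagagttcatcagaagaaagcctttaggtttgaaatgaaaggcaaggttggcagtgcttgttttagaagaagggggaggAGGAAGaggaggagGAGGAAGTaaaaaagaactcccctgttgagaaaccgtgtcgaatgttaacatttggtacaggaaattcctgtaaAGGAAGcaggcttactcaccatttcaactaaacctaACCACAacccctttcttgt

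Such windows were found for 9637 of the 14052 genes tested, with 1.28 windows per gene, and a match was counted on either strand of any window of a gene. A match is a description of letters and not a binding site. The ETS core was held by 37.8% of all these genes, 37.9% of those called higher and 41.6% of those called lower. The PU.1-type motif, which contains the ETS core, was held by 3.83% of all, 3.26% of the higher and 5.49% of the lower genes, and the RUNX core by 14.9%, 13.7% and 18.1%. In the same order, the GATA core AGATAA was held by 7.76%, 7.66% and 8.44%, the SOX core ACAATG by 8.84%, 9.03% and 9.50%, and the CREB site TGACGT, tied to neither cell type, by 13.4%, 10.9% and 14.9%. Among genes more than 16-fold lower (365, a cut chosen after the values were seen), 56.7% held an ETS core, 12.9% a PU.1-type and 25.8% a RUNX core, against 40.5%, 3.77% and 15.5% of the 477 more than 16-fold higher. For the same genes the GATA core was held by 12.3% of the lower and 7.13% of the higher, the SOX core by 13.4% and 9.43%, and the CREB site by 8.49% and 6.50%. The median GC content of these windows was 54.0% for the lower and 61.7% for the higher genes, against 61.0% for all, and its part in these shares was not tested.

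Endothelial markers rose together in the AS-bright tdT GEC. Of 20 listed and tested, 18 were called higher and 1 lower, with a median change of 6.16 beside 0.02 for all genes. Summed over the list, the level was 403, 427 and 428 CPM in the AS-dim tdT and 16679, 15737 and 15898 CPM in the AS-bright tdT libraries. Emcn, the endothelial sialomucin endomucin, had the highest CPM of the list in the bright cells, with 29.0, 41.9 and 49.1 CPM in the AS-dim tdT and 3178, 3496 and 3089.9 CPM in the AS-bright tdT libraries (log2 fold change 6.37, standard error 0.27, adjusted p = 1.36e-08). Cdh5, the VE-cadherin of adherens junctions, had 8.58, 10.2 and 12.9 CPM in the AS-dim tdT and 1059, 986 and 1160.5 CPM in the AS-bright tdT libraries (log2 fold change 6.67, standard error 0.25, adjusted p = 1.28e-08), and it overlaps a predicted gene. For both genes the bright libraries lay close to each other and well above the dim ones. Pecam1 (CD31) rose by 4.90, Eng (endoglin) by 6.29, Tie1, the partner receptor of Tek, by 6.41, and Nos3, the endothelial nitric oxide synthase, by 5.20 on the log2 scale. The exceptions were Vwf, the von Willebrand factor, which fell (log2 -3.07) from 10.9, 9.21 and 10.2 to 1.496, 1.10 and 0.995 CPM, and Cd93, which was not called at 132, 102 and 114 CPM in the dim and 131, 102 and 131 CPM in the bright libraries.

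Genes that mark the glomerular endothelium over other renal endothelia were called higher in 9 of 9 cases, with a median change of 5.98. Plat, the tissue plasminogen activator, had 88.9, 88.7 and 124 CPM in the AS-dim tdT and 12765, 7332 and 9321 CPM in the AS-bright tdT libraries (log2 fold change 6.59, standard error 0.31, adjusted p = 2.26e-08), and had among the highest CPM of the bright cells. Ehd3, a membrane-trafficking protein typical of these cells, had 51.1, 84.6 and 94.4 CPM in the AS-dim tdT and 5685, 4358 and 4228 CPM in the AS-bright tdT libraries (log2 fold change 5.98, standard error 0.32, adjusted p = 6.06e-08). The dim libraries thus held a measurable level of both, with no overlap with the bright ones. The transcription factors Gata5 and Tbx3 rose by 7.97 and 5.82, and Sost, the secreted Wnt inhibitor sclerostin, by 8.03. Sost and Gata5 were close to the counting floor in the dim libraries, at 0.139, 0.329 and 0.158 and 0.139, 0.164 and 0.394 CPM.

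Markers of other endothelial beds also rose. Of 12 arterial genes, 11 were called higher (median 4.93), including the Notch ligand Dll4 (6.64), the gap junction gene Gja4 (6.81) and the transcription factor Sox17 (6.62), while the kinase gene Bmx fell (log2 -2.20). Of 7 venous and peritubular genes tested, 6 were higher (median 2.46), such as the ephrin receptor Ephb4 (6.54) and Plvap, the diaphragm protein of fenestrae (6.30), and Selp (P-selectin) was lower (-1.14), a call that was lost in 9 of the 11 alternatives (-1.22 to -1.12), among them the fit without the replicate block and DESeq2. Lymphatic markers were called higher in 3 of 4 tested, at low levels: Prox1 had a mean of 18.7 CPM and Lyve1 of 2.04 CPM in the bright cells. Of 8 tested genes of sprouting endothelium, 6 were higher (median 3.91), among them Cd34 (6.03), the tip cell gene Esm1 (4.68) and the apelin receptor Aplnr (4.52), and the chemokine receptor Cxcr4 was lower (-4.24).

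**Figure D2:**
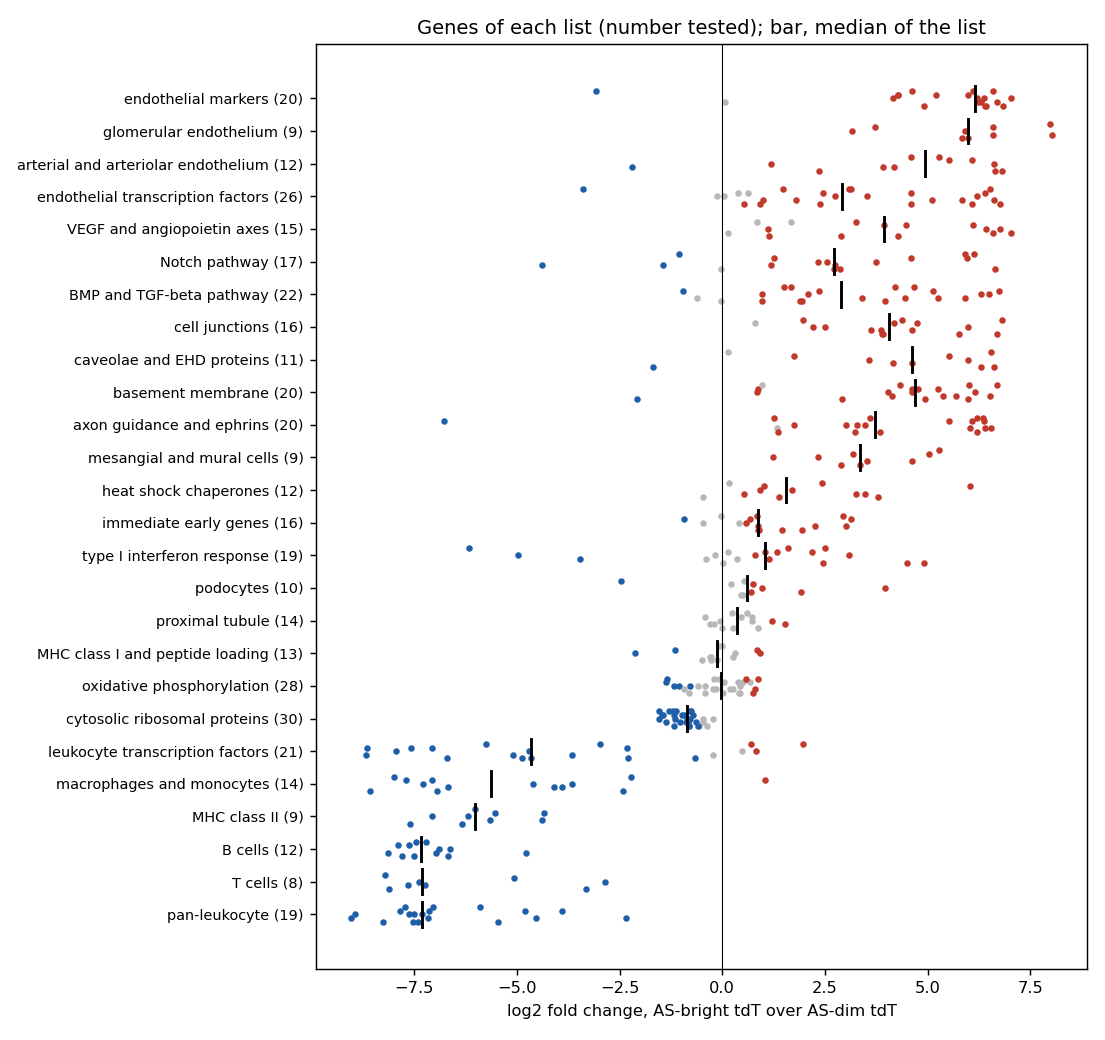
Each point is a gene of the list on the y axis (number tested in brackets), placed by its log2 fold change, bright over dim. Red was called higher, blue lower and grey not called, and the bar is the list's median. Over the lists plotted it runs from 6.16 for endothelial markers to -7.34 for B cells.

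Leukocyte genes fell as a whole. All 19 pan-leukocyte genes tested were called lower, with a median change of -7.30. Their summed level was 18672, 17730.1 and 18749 CPM in the AS-dim tdT and 228, 197 and 216 CPM in the AS-bright tdT libraries, so that it exceeded the summed endothelial markers in every dim library and was far below them in every bright library. Ptprc (CD45), the phosphatase shared by nearly all leukocytes, had 1346, 1295 and 1428 CPM in the AS-dim tdT and 3.13, 8.03 and 2.70 CPM in the AS-bright tdT libraries (log2 fold change -8.26, standard error 0.37, adjusted p = 1.87e-08). Coro1a, an actin-binding protein of blood cells, had 7267, 7031 and 7329 CPM in the AS-dim tdT and 65.8, 35.5 and 54.6 CPM in the AS-bright tdT libraries (log2 fold change -7.16, standard error 0.30, adjusted p = 1.32e-08). None of the 19 was at or under the floor of 3 counts in all bright libraries, though Rac2 came close to it with 4, 4 and 2 counts.

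Marker genes of several leukocyte classes were measured in the AS-dim tdT libraries. All 12 B cell genes tested were lower in the bright cells (median -7.34), such as the surface antigen gene Ms4a1 (CD20, 325, 453 and 262 against 1.64, 1.94 and 0.782 CPM, -7.90 log2) and the antigen receptor genes Ighm (-7.63) and Igkc (-7.49). The 8 T cell genes tested were all lower (median -7.31), such as Trac (-8.10) and Cd8a (-7.23), and so were the 4 tested genes of NK and cytotoxic cells (median -8.12), such as Gzmb (-7.89). Of 14 macrophage and monocyte genes, 13 were lower (median -5.64), with Lyz2 (lysozyme) at a mean of 6416 CPM in the dim and 48.3 CPM in the bright cells and Csf1r at -8.57 log2, and the exception was Mrc1, the mannose receptor, which rose by 1.05 (0.90 and not called without AS mouse 1). Of 7 dendritic cell genes, 5 were lower, such as Cd83 (-6.73) and Flt3 (-6.02), and Zbtb46 (2.76) and Clec9a (1.51) were higher. The 3 neutrophil genes tested were lower (Csf3r -8.41, S100a9 -7.86, Mmp9 -8.34). Of mast cell and basophil genes only Kit was tested, at a mean of 12.2 and 14.4 CPM and not called, and 6 of the 8 listed were in the table of the dim cells alone. Of 6 erythroid and platelet genes tested, 4 were lower at low levels, with Hbb-bs at a mean of 20.7 CPM in the dim and 11.6 CPM in the bright cells. Hbb-bs was not called without AS mouse 2 (-0.76) or mouse 3 (-0.72).

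**Figure D3:**
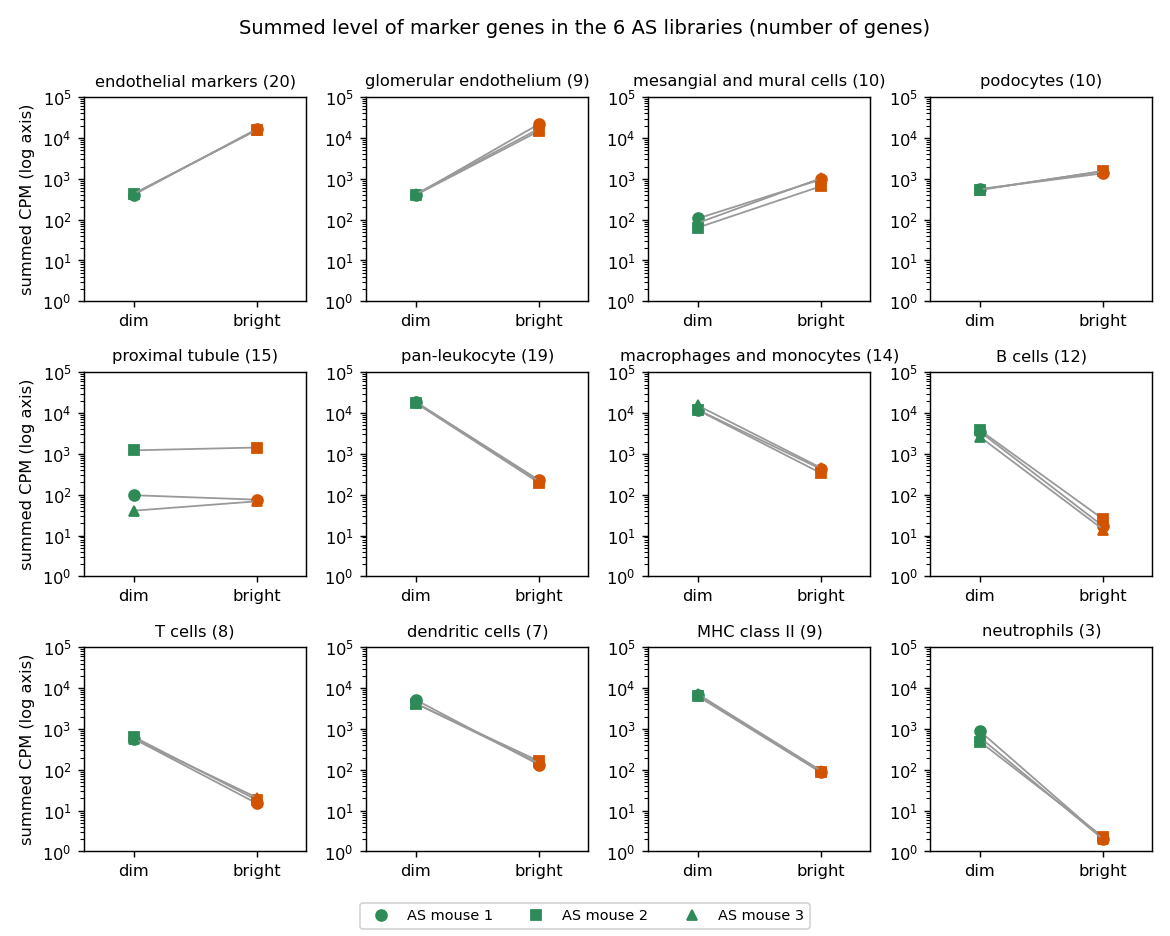
Summed CPM (log axis) of the genes of 12 marker lists in each AS-dim tdT and AS-bright tdT library, with a line joining the libraries of a mouse and the number of genes in brackets. Endothelial, glomerular, mesangial and podocyte sums are higher and the leukocyte sums lower in all 3 bright libraries, while the proximal tubule sum is set apart by AS mouse 2 in both.

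Genes listed for 1 population alone had no value for the other and were not tested. The highest CPM among those listed for the dim cells alone were found for Lilrb4a, an inhibitory receptor of myeloid cells, at 137, 100.1 and 115 CPM, Jchain, the joining chain of immunoglobulins, at 97.5, 96.1 and 145 CPM, and Spib, a transcription factor of B cells, at 123, 127 and 81.5 CPM. Mcemp1 and Igsf6, both membrane proteins of myeloid cells, followed at 90.9, 70.3 and 126 and 83.8, 78.0 and 107 CPM. Those listed for the bright cells alone were lower in level. They were the glycosyltransferase gene Galnt15 (27.5, 25.8 and 30.9 CPM), Mtss1l (27.1, 26.4 and 19.2 CPM), Apln, which encodes the apelin ligand of endothelial tip cells (23.6, 16.2 and 25.01 CPM), Spaar (18.3, 12.8 and 25.01 CPM) and Myrip (17.3, 16.4 and 17.1 CPM). Of the lists above, 11 of 19 T cell, 10 of 14 NK and 7 of 10 neutrophil genes were listed for the dim cells alone.

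Transcription factors separated the populations along the same line as the markers. Of 26 endothelial factors tested, 21 were called higher (median 2.92), and of 21 leukocyte factors 16 were lower (median -4.65). Epas1, the hypoxia-inducible factor HIF-2α, had the highest CPM of the endothelial factors in the bright cells, with 119, 109.8 and 109.8 CPM in the AS-dim tdT and 3746, 3950.3 and 3951 CPM in the AS-bright tdT libraries (log2 fold change 5.10, standard error 0.23, adjusted p = 1.88e-08). Sox7, Sox18 and Erg rose by 6.76, 6.21 and 6.07. The broadly expressed factors Ets1, Ets2, Klf2 and Mef2c were not called, with log2 changes of 0.04, 0.38, 0.63 and -0.14, and Lyl1 fell (log2 -3.39). Klf2 was called with DESeq2 (0.61) and with a likelihood ratio test (0.63). Spi1, which encodes PU.1, the master factor of myeloid cells, had 119.9, 100.2 and 128 CPM in the AS-dim tdT and 0.570, 2.01 and 0.711 CPM in the AS-bright tdT libraries (log2 fold change -6.69, standard error 0.39, adjusted p = 9.76e-08). Pou2af1, a coactivator of B cells, changed by -8.64, Bcl11b of T cells by -7.06 and Ikzf1 (Ikaros) by -5.09. Higher in the bright cells were Irf8 (0.70), Ebf1 (0.81) and Gata3 (1.97), and Irf8 was abundant in both, at 930.3, 952 and 978 CPM in the dim and 1683, 934 and 2334 CPM in the bright libraries. The calls of Irf8 and Ebf1 were lost without AS mouse 1 (0.62 and 0.67) or mouse 3 (0.38 and 0.64).

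The receptors that read VEGF and angiopoietin were among the most changed. Of 15 genes of these axes tested, 12 were called higher and none lower (median 3.94). Among the receptors, Flt4, the VEGF-C receptor, rose by 6.75, Flt1, the decoy receptor of VEGF, by 4.29 and the co-receptor Nrp1 by 4.48, and the phosphatase Ptprb that acts on Tek rose by 6.10. Among the ligands, Vegfa had 66.8, 80.2 and 69.6 CPM in the AS-dim tdT and 134, 187 and 157 CPM in the AS-bright tdT libraries (log2 fold change 1.13, standard error 0.19, adjusted p = 0.000479), a far smaller change than those of its receptors. Angpt2, the context-dependent Tek ligand, rose by 2.88 and Vegfd by 3.94, while Pgf (1.68), Vegfb (0.14) and Svep1 (0.85) were not called. Pgf was called at 2.80 with DESeq2, at 2.75 with a likelihood ratio test and at 4.33 without AS mouse 3.

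In the Notch pathway 13 of 17 genes were higher and 3 lower (median 2.72). The endothelial receptor Notch4 rose by 5.95 and Notch1 by 2.72, while Notch2 had 92.7, 77.1 and 127 CPM in the AS-dim tdT and 6.12, 4.99 and 2.84 CPM in the AS-bright tdT libraries (log2 fold change -4.39, standard error 0.33, adjusted p = 8.19e-07), so that the receptors went in opposite directions. The targets Hey1, Hey2 and Hes1 rose by 4.58, 6.12 and 2.55, and Rbpj, the DNA-binding effector, and the fringe gene Lfng fell (log2 -1.44 and -1.05). Of 22 genes of the BMP and TGF-beta pathway, 19 were higher (median 2.88). Bmp6 had 1.74, 10.8 and 1.89 CPM in the AS-dim tdT and 385, 316 and 403 CPM in the AS-bright tdT libraries (log2 fold change 6.48, standard error 0.51, adjusted p = 1.15e-06), the inhibitory Smad6 rose by 5.91, the target Id1 by 4.21 and the antagonist Bmper by 6.72. The ligand Tgfb1 was the exception, at 224, 221 and 228 CPM in the dim and 136, 99.9 and 115 CPM in the bright libraries (-0.95 log2).

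Genes of sphingosine-1-phosphate (S1P), a lipid that acts on vessels and on lymphocyte traffic, were split, with 6 higher and 4 lower of 11 (median 2.31). The receptors S1pr1 and S1pr3, the kinase Sphk1 and the exporter Spns2 rose by 2.31, 3.18, 3.12 and 3.52. The receptors S1pr2 and S1pr4 and the lyase Sgpl1 fell (log2 -1.39, -1.64 and -2.43). The lipid phosphatase genes Plpp3 and Plpp1 showed the highest changes of the list, 6.39 and 6.99. Of 20 tested axon guidance and ephrin genes, which also steer vessels, 18 were higher (median 3.71). Sema3f had 21.6, 15.0 and 13.6 CPM in the AS-dim tdT and 976, 756 and 1730.3 CPM in the AS-bright tdT libraries (log2 fold change 6.03, standard error 0.33, adjusted p = 6.63e-08), Efnb2, the arterial ephrin, rose by 5.53, and the netrin Ntn4 and its receptor Unc5b by 6.35 and 6.08. Sema4d, the semaphorin of lymphocytes, was the exception at -6.76.

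Most genes of cell junctions and caveolae rose in the bright cells. Of 16 junction genes tested, 15 were called higher and none lower (median 4.05), with the tight junction gene Cldn5 at 2.86, 3.12 and 2.599 CPM in the AS-dim tdT and 63.4, 53.2 and 103 CPM in the AS-bright tdT libraries (log2 fold change 4.63, standard error 0.32, adjusted p = 3.59e-07), the adhesion molecule Esam at 5.97 log2 and the scaffold Tjp1 (ZO-1) at 3.86. Of 11 genes of caveolae and EHD proteins, 9 were higher (median 4.62). Cav1, the coat protein caveolin-1, had 3.70, 2.88 and 1.42 CPM in the AS-dim tdT and 239, 259.8 and 292 CPM in the AS-bright tdT libraries (log2 fold change 6.62, standard error 0.33, adjusted p = 3.18e-08). Of the EHD proteins, Ehd2 and Ehd4 rose by 4.62 and 1.76 and Ehd1 fell (log2 -1.70).

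Basement membrane genes rose, but the type IV collagen chains did not rise equally. Of 20 tested, 18 were higher and 1 lower (median 4.69). Col4a1 had 12.3, 6.50 and 14.02 CPM in the AS-dim tdT and 741, 608 and 672 CPM in the AS-bright tdT libraries (log2 fold change 5.98, standard error 0.27, adjusted p = 1.78e-08), and Col4a2, its partner in the collagen of all vessels, rose by 5.70. Both overlap other annotated genes. Col4a3 and Col4a4, the partners of Col4a5 in the mature glomerular membrane, rose by 0.84 and 0.87, from means of 14.8 and 42.6 CPM to 27.9 and 77.6 CPM, and Col4a6 fell (log2 -2.07). Col4a3 was not called without AS mouse 1 (0.97) or mouse 2 (0.50), and Col4a4 not without mouse 3 (0.61). Podocytes are the known source of the chains α3 to α5. Of 10 podocyte genes 5 were higher, 1 lower and 4 not called, with a summed level of 531 to 562 CPM in the dim and 1364 to 1561 CPM in the bright libraries, and their part in these values was not tested. Hspg2 (perlecan) and the laminin chains Lama4, Lamb2 and Lamc1 rose by 6.69, 6.14, 4.93 and 4.12. Sparc, a collagen-binding matrix protein, had the highest CPM of the list in the bright cells, at 2601, 1883 and 2644 CPM (4.77 log2).

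Of 18 tested genes of the glycocalyx, the sugar coat of the capillary wall, 9 were higher, 3 lower and 6 not called (median 0.72). The core proteins Podxl and Cd34 rose by 3.96 and 6.03 and the hyaluronidase Hyal2 by 6.01. Cd44, the hyaluronan receptor, had 2163, 1889 and 1878 CPM in the AS-dim tdT and 8.62, 9.45 and 4.97 CPM in the AS-bright tdT libraries (log2 fold change -8.03, standard error 0.29, adjusted p = 1.28e-08), and the proteoglycan Vcan changed by -7.95. Both are also genes of leukocytes. The syndecans Sdc1, Sdc3 and Sdc4 were not called, at 0.24, 0.05 and 0.10, though Sdc1 was without AS mouse 2 (0.71). Of 22 integrins 9 were higher (40.9%) and 8 lower (36.4%), beside 28.5% and 26.7% of all genes (median 0.12): the laminin-binding chains Itga3 and Itga6 rose by 4.16 and 3.86 and Itgb1 by 1.85, while the leukocyte chains Itgal, Itgb2 and Itga4 changed by -8.51, -7.30 and -4.42.

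In coagulation and fibrinolysis 12 of 18 genes were higher and 4 lower (median 2.73). The anticoagulant receptor thrombomodulin, Thbd, had 164, 178 and 181 CPM in the AS-dim tdT and 1605, 1119 and 1337 CPM in the AS-bright tdT libraries (log2 fold change 2.94, standard error 0.21, adjusted p = 6.16e-07), and F8 (factor VIII) rose by 5.77. F13a1, F10 and F5 changed by -8.09, -8.03 and -6.79, and with Vwf make up the genes that fell. Of 10 adhesion molecules tested, 7 were higher (median 3.90). Sele (E-selectin), which captures leukocytes, had 1.95, 1.23 and 4.73 CPM in the AS-dim tdT and 149, 211 and 211 CPM in the AS-bright tdT libraries (log2 fold change 6.21, standard error 0.34, adjusted p = 7.10e-08), and Icam1 and Vcam1 rose by 1.95 and 3.63. The leukocyte partner Selplg changed by -6.94. Of 15 genes of fatty acid handling, 5 were higher (33.3%) and 3 lower (20%), beside 28.5% and 26.7% of all genes. The median was -0.13, and its sign was not kept with 1 mouse left out. Gpihbp1, the anchor of lipoprotein lipase on capillaries, was at 6.98, the lipase Lpl at 3.15 and Cd36 at -2.14.

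Antigen presentation differed by class. All 9 MHC class II genes tested were lower in the bright cells (median -6.01): Cd74, the invariant chain, had 2090.3, 1911 and 2327 CPM in the AS-dim tdT and 17.5, 17.9997 and 12.3 CPM in the AS-bright tdT libraries (log2 fold change -7.05, standard error 0.28, adjusted p = 1.28e-08). Of 13 class I and peptide-loading genes, 9 were not called (median -0.14), and H2-K1 had 2666, 2347 and 2878 CPM in the AS-dim tdT and 2255, 1548 and 3885 CPM in the AS-bright tdT libraries (log2 fold change -0.14, standard error 0.24, adjusted p = 0.648), overlapping between groups. H2-Q4 and Tap2 rose by 0.91 and 0.84, and H2-Q7 and the regulator Nlrc5 fell (log2 -1.15 and -2.11), where reads of H2-Q genes may be shared between near-identical copies. H2-Q7 and Nlrc5 were no longer called without the replicate block (-0.92 and -1.65). Without AS mouse 1 neither H2-Q4 (0.64), H2-Q7 (-0.85) nor Tap2 (0.83) was called, and without mouse 3 Tap2 was not (0.56).

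Chemokine ligands were divided between the populations. Of 15 tested, 10 were lower in the bright cells, such as Ccl6, Ccl9 and Cxcl2 at -8.00, -7.87 and -4.42, and 4 were higher (median -3.49). Cx3cl1 (fractalkine), the membrane-bound ligand that tethers monocytes to endothelium, had 6.00, 6.91 and 7.25 CPM in the AS-dim tdT and 658, 507 and 933 CPM in the AS-bright tdT libraries (log2 fold change 6.67, standard error 0.27, adjusted p = 1.28e-08). Cxcl10, Cxcl1 and Cxcl12 rose by 3.50, 2.95 and 2.36. Of 7 receptors tested, 6 were lower (median -7.03), such as Ccr2 of monocytes (-7.98) and Ccr7 (-7.39), and the scavenging receptor Ackr3 rose by 4.13.

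Of 16 innate immune receptors and adaptors tested, 10 were lower and 2 higher (median -3.70). Cd14, a co-receptor of endotoxin, had 3713, 3456 and 4238 CPM in the AS-dim tdT and 242, 163 and 275 CPM in the AS-bright tdT libraries (log2 fold change -4.10, standard error 0.23, adjusted p = 7.76e-08), and it stayed well measured in every bright library. Tlr2, Tlr7 and Nlrp3 changed by -3.30, -5.88 and -6.39, while Tlr3 and Tlr4 rose by 3.88 and 1.06 and the adaptor Myd88 was not called (0.21). In the interleukin-1 and interleukin-18 families 5 genes rose and 6 fell of 12 (median -1.75). Il1b, the cytokine interleukin-1β, had 2886, 2555 and 4049.8 CPM in the AS-dim tdT and 14.8, 17.9 and 13.9 CPM in the AS-bright tdT libraries (log2 fold change -7.64, standard error 0.30, adjusted p = 1.28e-08) and its antagonist Il1rn changed by -8.35, while the signalling receptor Il1r1 rose by 4.16 and Il1a by 1.34. Of 8 Fc receptors tested, 6 were lower (median -7.12), such as Fcgr2b and Fcgr3 (-6.63 and -7.19), and Fcgrt, the neonatal Fc receptor that spares IgG and albumin, rose by 1.61. Of 15 complement genes, 5 were higher and 10 lower (median -3.08), the inhibitor Serping1 and the protease genes C1s1 and C1ra rising by 3.96, 4.06 and 2.97 and C3 and the anaphylatoxin receptor C5ar1 changing by -6.38 and -7.78.

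The type I interferon response did not move as 1 group. Of 19 genes tested, 11 were higher, 3 lower and 5 not called (median 1.05), and without the replicate block 9 were higher (median 0.74). The summed level was 1615, 1371 and 3644 CPM in the dim and 3519, 2898 and 5809.6 CPM in the bright libraries, so that AS mouse 3 was the highest in both sorts. Without that mouse 11 were higher and 3 lower (median 1.03). Ifit1, which binds viral RNA, had 4.67, 1.398 and 8.19 CPM in the AS-dim tdT and 128, 79.2 and 197 CPM in the AS-bright tdT libraries (log2 fold change 4.91, standard error 0.29, adjusted p = 1.11e-07). Rsad2 (viperin) had 193, 119 and 399 CPM in the AS-dim tdT and 910.3, 1081 and 1691 CPM in the AS-bright tdT libraries (log2 fold change 2.50, standard error 0.25, adjusted p = 7.79e-06). Ifi44 and Ifit3 rose by 4.50 and 3.09, whereas Mx1 had 219.6, 174 and 419 CPM in the AS-dim tdT and 1.07, 3.43 and 7.60 CPM in the AS-bright tdT libraries (log2 fold change -6.15, standard error 0.35, adjusted p = 8.11e-08) and Oas2 and Zbp1 changed by -4.96 and -3.45. The transcription factors Stat2 and Irf7 were not called (0.37 and -0.18), and Irf9 rose by 1.33.

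**Figure D4:**
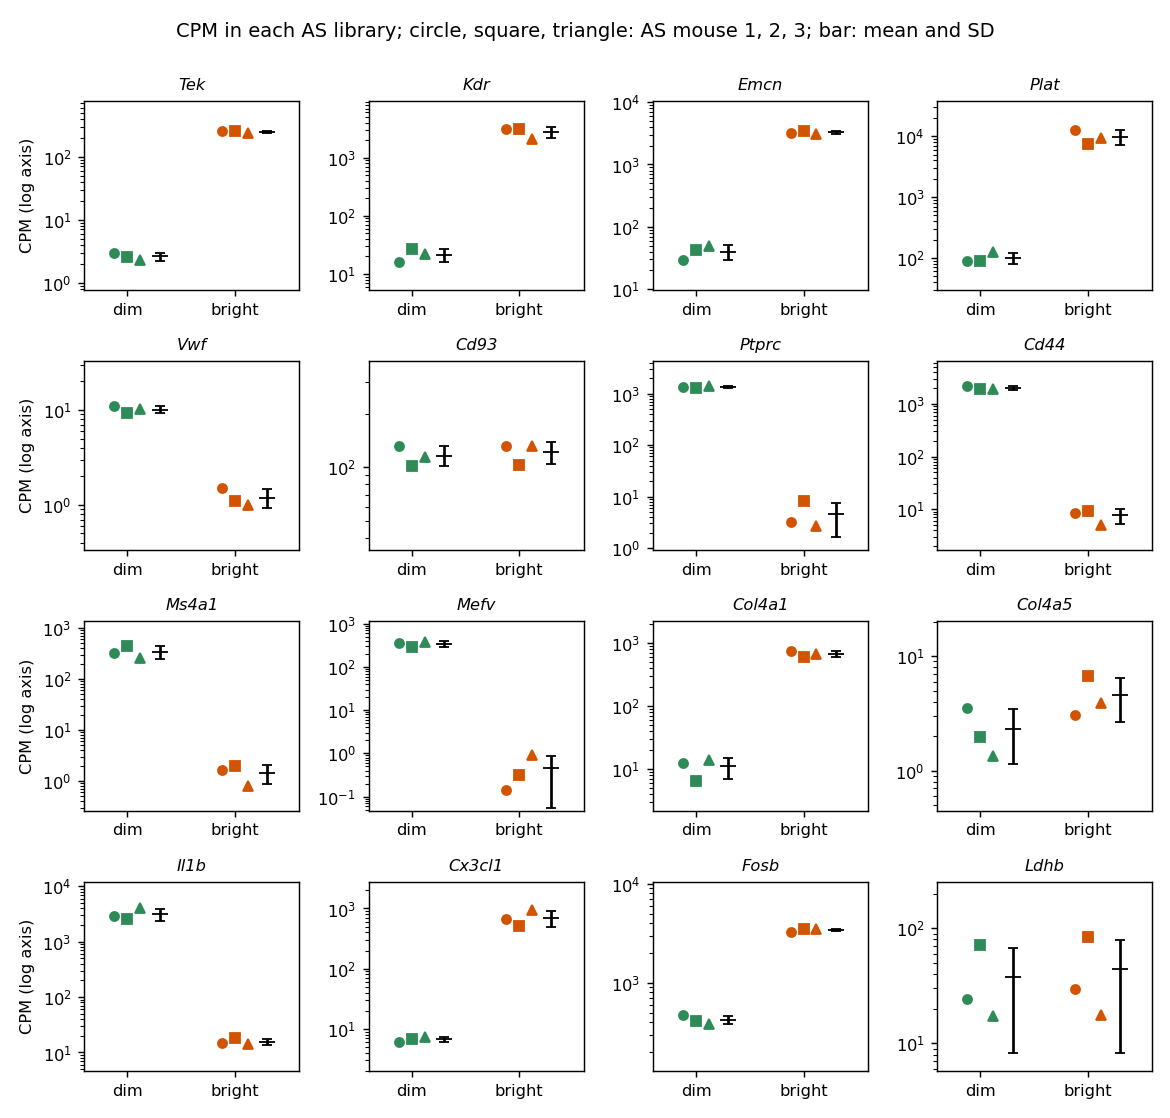
CPM (log axis, scaled per panel) of 16 genes in each AS-dim tdT and AS-bright tdT library, with the mean and SD (n = 3) beside the points. The bright libraries lie above the dim for Tek, Kdr, Emcn, Plat, Col4a1, Cx3cl1 and Fosb and below them for Vwf, Ptprc, Cd44, Ms4a1, Mefv and Il1b, and the groups overlap for Cd93, Col4a5 and Ldhb.

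Immediate early genes, which respond within minutes to stimuli that include tissue digestion, were high in both populations and higher in the bright cells. Of 16, 12 were called higher and 1 lower (median 0.86). Fosb had 470.3, 414 and 387 CPM in the AS-dim tdT and 3290.5, 3506 and 3458 CPM in the AS-bright tdT libraries (log2 fold change 3.02, standard error 0.21, adjusted p = 4.66e-07), Jun rose by 3.14 and Atf3 by 2.93, while Nr4a1 fell (log2 -0.94). Of 12 heat shock genes, 10 were higher and none lower (median 1.54). Hspb1, a small chaperone, had 4.32, 5.51 and 8.74 CPM in the AS-dim tdT and 409, 237 and 579 CPM in the AS-bright tdT libraries (log2 fold change 6.02, standard error 0.28, adjusted p = 2.26e-08), and Hspa1a and Hspa1b, near-identical copies whose reads cannot be separated with certainty, rose by 3.79 and 3.48. Both lists moved in the direction of the endothelial markers, and the part of cell handling in any gene named here was not tested.

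Cytosolic ribosomal protein genes were called lower in 25 of 30 cases and higher in none, with a narrow spread around a median of -0.86: Rplp1 had 1691, 1588 and 1666 CPM in the AS-dim tdT and 885, 651 and 899 CPM in the AS-bright tdT libraries (log2 fold change -1.04, standard error 0.20, adjusted p = 0.000981). Of 28 genes of oxidative phosphorylation, 19 were not called (median -0.03), and of the 5 that fell, 4 were mitochondrially encoded, such as mt-Cytb (-1.35) and mt-Nd4 (-1.38). These 2 were not called without the replicate block (-1.28 and -1.36), and mitochondrially encoded genes took 3.58% to 8.22% of the counts of the AS-dim tdT and 2.82% to 5.88% of the AS-bright tdT libraries, highest in AS mouse 2 in both. In glycolysis 4 of 18 genes were higher (22.2%) and 6 lower (33.3%), beside 28.5% and 26.7% of all genes (median -0.19). The lactate dehydrogenase Ldha rose by 1.14, the hexokinases Hk1 and Hk2 were at 1.47 and -4.80, and Gapdh was not called (-0.20). Cell cycle genes were low in both populations and 12 of 19 were not called (median -0.30). Pcna rose by 1.43, and the proliferation marker Mki67 fell (log2 -2.12) from a mean of 9.28 to 2.17 CPM. Of 14 Kruppel-like factors, 5 were higher and 5 lower (35.7% each, beside 28.5% and 26.7% of all genes). Their median of -0.18 reversed its sign with DESeq2 and with a likelihood ratio test, among other fits. Klf4 and Klf9 rose by 1.49 and 2.14, and Klf6 and Klf3 were at -1.25 and -1.21. Of 16 housekeeping genes, 2 were higher and 5 lower (median -0.19), with Actb at -0.74 (not called without AS mouse 1, at -0.94, or mouse 3, at -0.61) and Ppia and Hprt not called (0.35 and 0.45).

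Of 20 tetraspanins and Gimap GTPases, families shared by endothelium and lymphocytes, 13 were higher and 6 lower (median 1.59). Cd81 had 57.3, 62.7 and 52.3 CPM in the AS-dim tdT and 1180.4, 1040.1 and 1343 CPM in the AS-bright tdT libraries (log2 fold change 4.37, standard error 0.23, adjusted p = 4.63e-08), and Tspan7 and Tspan12 rose by 6.59 and 5.60. Cd53 and Cd37, the tetraspanins of leukocytes, changed by -4.80 and -3.89. Within the Gimap cluster Gimap4, Gimap5 and Gimap6 rose by 2.96, 2.26 and 1.65 and Gimap7 had 28.7, 29.5 and 22.4 CPM in the AS-dim tdT and 2.71, 0.906 and 0.213 CPM in the AS-bright tdT libraries (log2 fold change -4.47, standard error 0.47, adjusted p = 1.11e-05), so that neighbouring members went in opposite directions.

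Marker genes of other kidney cells were counted in both populations. The gate on tdTomato was meant to leave such cells out, and the part of such cells in these values was not tested. Of 10 podocyte genes, 5 were called higher and 1 lower (median 0.61), and the summed level was 562, 531 and 547 CPM in the dim and 1364, 1561 and 1530.0 CPM in the bright libraries. Much of the sum in the bright cells came from Podxl, which endothelium also expresses. Nphs1 (nephrin), a protein of the slit diaphragm of podocytes, had 20.2, 15.0 and 19.0 CPM in the AS-dim tdT and 25.4, 38.7 and 16.1 CPM in the AS-bright tdT libraries (log2 fold change 0.49, standard error 0.32, adjusted p = 0.214), overlapping between groups, and was not called. Wt1 rose by 0.75, a call lost without any 1 of the mice (0.51 to 0.84), and Ptpro, a phosphatase of podocytes that leukocytes can also express, fell (log2 -2.47). All 9 mesangial and mural genes tested were higher (median 3.36), with summed levels of 107, 63.8 and 82.9 CPM in the dim and 968, 659 and 1034 CPM in the bright libraries. Pdgfrb, the receptor that defines these cells, had 16.8, 12.9 and 9.29 CPM in the AS-dim tdT and 153, 74.7 and 195 CPM in the AS-bright tdT libraries (log2 fold change 3.36, standard error 0.33, adjusted p = 6.97e-06), and Ren1 (renin) rose by 5.28. Both tested fibroblast genes were higher, Col1a2 by 1.17 and Pdgfra by 3.59.

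Of 14 proximal tubule genes tested, 12 were not called, 2 rose and none fell (median 0.36). The summed level was 97.2, 1222 and 40.6 CPM in the dim and 75.7, 1434 and 69.0 CPM in the bright libraries, so that AS mouse 2 stood apart in both sorts. Slc27a2, a fatty acid transporter, was 1 of the 2 that rose (1.53), and it was not called without the replicate block. Of 8 genes of the loop, distal tubule and collecting duct, 6 were not called (median -0.36), Slc12a3 fell (log2 -1.34) and Krt8 rose by 1.71, and neither was called without the block. Krt8 was also lost without AS mouse 1 (1.51) or mouse 3 (1.47), and Slc27a2 without mouse 1 (1.17).

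The change of bright over dim was then set beside that of the WT mice, to ask whether it differed with the Alport genotype. In 1 edgeR fit of all 12 libraries, 576 of 15084 genes differed (3.82%), 453 with a higher and 123 with a lower value in AS, and the median AS minus WT difference was 0.14 (log2) among all genes tested. It was 0.08 with RLE normalization, -0.03 with library sizes alone and -0.019 to 0.14 with 1 mouse left out. With 1 AS mouse left out the counts fell, to 0 without the libraries of mouse 1, 245 without mouse 2 and 110 without mouse 3 (1817, 2353 and 2058 at an unadjusted p below 0.05, against 2808 with all mice). With 1 WT mouse left out they were 452 to 627. With the mouse as a replicate block 882 genes differed. The mitochondrial share was 9.04% to 13.3% in the WT-dim tdT libraries, above every AS-dim tdT library, and its part in the differences was not tested.

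For 15 of 20 endothelial markers the value was higher in AS, with list medians of 6.16 in AS and 3.62 in WT. Their summed level was 403 to 428 CPM in the AS-dim tdT against 1010.4 to 1458 CPM in the WT-dim tdT libraries, while it was 15737 to 16679 and 12569.9 to 16296 CPM in the bright libraries. The dim libraries of the genotypes thus lay apart in the endothelial sum and the bright ones overlapped. This did not hold for every list. The bright libraries lay apart in the basement membrane sum (5909 to 7413 CPM in AS and 3466 to 4244 CPM in WT), as did the dim ones (289 to 310.3 CPM in AS and 857 to 1179 CPM in WT). In the sum of adhesion molecules the bright libraries lay apart (2607 to 3408 CPM in AS and 1562 to 2027 CPM in WT) and the dim ones overlapped (677 to 793 CPM in AS and 592 to 775 CPM in WT). The dim libraries of AS and WT also lay apart in the summed markers of other cells. These sums were 40.6 to 1222 CPM in AS and 3299 to 14897 CPM in WT for the proximal tubule, and 531 to 562 and 753 to 1516 CPM for podocytes. For the loop, distal tubule and collecting duct they were 42.2 to 271 and 697 to 1761 CPM, and for pan-leukocyte genes 17730.1 to 18749 and 10753 to 17451 CPM. For mesangial and mural cells the dim sums were 63.8 to 107 CPM in AS and 123 to 229.5 CPM in WT, for macrophages and monocytes 11816 to 15342 CPM in AS and 5352 to 10041 CPM in WT and for MHC class II 6365 to 7165 CPM in AS and 3551 to 4158 CPM in WT. In the bright libraries the sums lay apart as well, among others, for podocytes (1364 to 1561 CPM in AS and 1073 to 1267 CPM in WT), for the loop, distal tubule and collecting duct (24.4 to 238 CPM in AS and 395 to 548 CPM in WT) and for pan-leukocyte genes (197 to 228 CPM in AS and 109.6 to 175 CPM in WT). The part of these cells in the differences was not tested. Unlike in the test of the difference, the CPM of AS and WT libraries were scaled by TMM in separate fits. The sums of the genotypes are thus not on 1 common scale, and narrow gaps, such as that of the pan-leukocyte sums in the dim libraries, are not firm. Tek changed by 6.58 in AS and 3.65 in WT (difference 2.98, adjusted p = 0.00397) and Kdr by 7.03 and 3.52 (difference 3.56, adjusted p = 0.00212). A higher value in AS was also found for 12 of 20 basement membrane, 9 of 16 junction, 11 of 20 axon guidance, 6 of 9 glomerular and 6 of 15 VEGF and angiopoietin genes. Col4a5, not called in AS, changed by 0.96 in AS and -3.10 in WT (difference 4.14, adjusted p = 0.00507). For 7 of 10 podocyte genes the value was higher in AS (list medians 0.61 and -1.85). No pan-leukocyte gene differed, with list medians of -7.30 in AS and -7.27 in WT. None of the differences given here passed edgeR's test without the libraries of AS mouse 1.

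**Figure D5:**
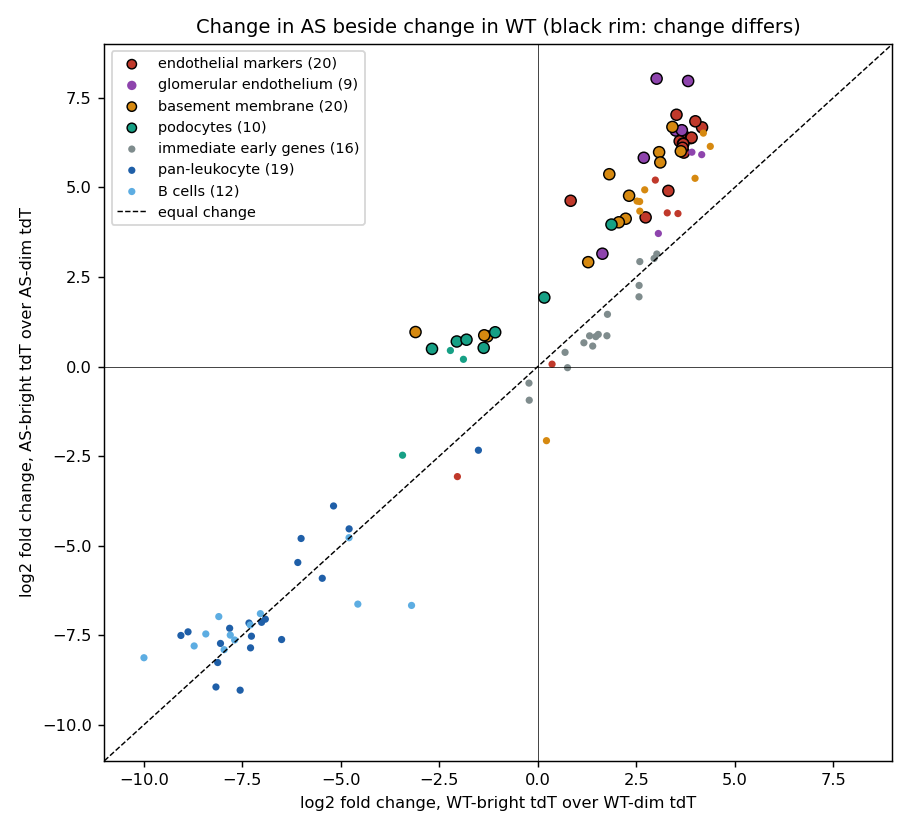
Each point is a gene of 7 lists, with the log2 fold change of bright over dim in WT on the x axis and in AS on the y axis. Genes with a black rim passed the test of the difference, the dashed line marks equal change, and 15 of the 20 endothelial markers lie above it with a rim while the 19 pan-leukocyte genes lie along it without one.

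Of 23 tested genes that the study took up by name, 11 were higher and 4 lower in the AS-bright tdT GEC (median 1.42), and as the study chose them on these samples their count is no independent evidence of direction. Besides genes given above, Mmp14, a membrane-bound matrix protease, had 1.88, 2.47 and 1.97 CPM in the AS-dim tdT and 43.7, 35.2 and 33.2 CPM in the AS-bright tdT libraries (log2 fold change 4.15, standard error 0.33, adjusted p = 1.24e-06), and the macrophage elastase Mmp12 had 26.6, 24.1 and 19.5 CPM in the AS-dim tdT and 0.285, 0.583 and 0.284 CPM in the AS-bright tdT libraries (log2 fold change -5.88, standard error 0.46, adjusted p = 7.80e-07). The bright libraries were all above the dim for Mmp14 and all below for Mmp12. The lipopolysaccharide-binding protein gene Lbp rose by 1.61 (1.11 and not called without AS mouse 1), and Ccl2, a ligand of Ccr2, had 15.8, 14.6 and 20.3 CPM in the AS-dim tdT and 0.356, 0.906 and 1.21 CPM in the AS-bright tdT libraries (log2 fold change -4.35, standard error 0.44, adjusted p = 8.30e-06). Prom1 (0.49), Itgb6 (0.48), Tyro3 (1.42) and the coactivator Ppargc1a (-1.16) were not called. Tyro3 was called without the replicate block (1.42, adjusted p = 0.0493 by edgeR), Prom1 (3.25) and Tyro3 (1.82) without AS mouse 2, and Ppargc1a (-1.63) without mouse 3.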

How the data were processed

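RNA of sorted AS-dim tdT and AS-bright tdT cells was analysed in 6 libraries, 2 from each of 3 AS mice, beside 6 WT libraries. According to the submitters' processing notes and the study's methods, poly-A libraries were trimmed with cutadapt and Trimmomatic, checked with FastQC 0.11.5, aligned with STAR 2.6.0c to GRCm38.p5 and counted on Gencode M16 genes. The strand counted is not given in the sources used here, although the kit marks strand, which leaves overlapping genes uncertain. The deposited counts are not normalized. The RPKM values deposited by the authors were calculated for each library, normalized for gene length and library size, and were not used. The log2 fold changes, likelihood ratio scores, p-values and FDR deposited by the authors compare AS with WT within a population and were not used. The deposited logCPM of the authors is pooled over the libraries and was not used either. Other deposited columns describe the genes.

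The tables of both populations were joined by gene identifier, with ERCC spike-ins left out. These 15768 genes held 99.1% to 99.2% of the gene counts of the AS-dim tdT and 99.8% of those of the AS-bright tdT libraries. Counts were filtered with filterByExpr, normalized by TMM and tested with edgeR 4.0.16 in R 4.3.3 (glmQLFit and glmQLFTest, two-sided, Benjamini-Hochberg adjustment) with the mouse as a block, which left 2 residual degrees of freedom per gene. The libraries of a mouse share its number in the table columns and the labels. Their deviations from the group means correlated across genes at 0.0430 to 0.311 within mice. The chi-square of replicate counts was 33.3 to 70.6 per degree of freedom, so no library was a copy. The difference from WT was tested in 1 fit of 12 libraries without the block. The floor of detection was 3 counts per library.

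Named genes are Tek, Col4a5, members of the gene lists, the 10 highest and 10 lowest changes among called, non-overlapping genes with an average logCPM over 5, and the 5 most abundant genes listed for 1 population alone. The comparison, members and lists were chosen with earlier results of these data known. Some members of the lists are not reported here. Positions are those of Gencode M21 on GRCm38. The tests were tried on simulated counts. Alternatives were the fit without the block, RLE normalization, library sizes alone, DESeq2 1.42.0, a likelihood ratio test, 2 other filters, each mouse left out, the methods' cut-offs and, added after the data were seen, edgeR's version 3 fit.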

Additional observations from a re-analysis of the deposited data

Results flagged for a closer look

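The change of bright over dim tdT cells differed between AS and WT for 576 genes by edgeR's quasi-likelihood test of the interaction (adjusted p below 0.05), a count that was 0 without AS mouse 1 (1817 at an unadjusted p below 0.05, against 2808), 245 without mouse 2 and 110 without mouse 3. By list, beside 3.82% of all 15084 genes tested, it differed for 15 of 20 endothelial markers, 6 of 9 glomerular and 5 of 12 arterial endothelial genes, 5 of 26 endothelial transcription factors, 6 of 15 genes of the VEGF and angiopoietin axes, 9 of 16 of cell junctions, 5 of 11 of caveolae and EHD proteins, 12 of 20 of the basement membrane, 5 of 10 adhesion molecules, 7 of 10 podocyte genes, 11 of 20 of axon guidance, 6 of 20 tetraspanins and Gimap GTPases and 7 of 23 genes the study took up. The study chose its genes on these samples, so their count is no independent evidence of a difference. These 13 lists held at least 5 such members, and 30 of the 54 lists held 1 or more.

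The difference of the log2 fold changes, AS minus WT, was 4.34 for Acer2, 4.34 for Mpped2, 4.17 for Ces2e, 4.14 for Col4a5, 4.06 for AU021092, 3.82 for Bace2, 3.56 for Kdr, 3.49 for Ptprg, 3.12 for Hspa12b and 2.98 for Tek. All were higher in AS. Except Tek and Col4a5, these genes were named for their high change in AS, which enters the difference, so that these values are a description. Of the genes named for the same reason, Cyp26b1 (3.23, adjusted p = 0.0694) and Dlk1 (1.37, adjusted p = 0.499) did not pass edgeR's test, and for the 10 genes with the lowest changes in AS the difference was -2.21 to 0.29 (adjusted p = 0.202 to 0.992). For Acer2 the change was 7.24 in AS and 3.16 in WT, and for Col4a5 it was 0.96 and -3.10. Tek and Bace2 changed by 6.58 and 7.87 in AS and by 3.65 and 4.12 in WT. The part of the endothelial and leukocyte makeup of the dim libraries in these differences was not tested.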

How the results depend on the processing

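The count of 7755 called genes was 7743 without the replicate block (7477 of them the same genes), 7768 with RLE normalization, 7716 with library sizes alone, 7095 with DESeq2 and the mouse as a block, 7822 with a likelihood ratio test and 7096 with edgeR's version 3 fit, which was chosen after seeing the data. It was 6123 to 6971 with 1 mouse left out. The limits in the study's methods (an unadjusted p below 0.05, a logCPM above 1 and a log2 fold change beyond 1.5) gave 4037 genes, 2217 higher and 1820 lower, of which 4030 are among the 7755. No gene called in both settings changed direction in any of them. The count of 576 genes that differed between AS and WT was 882 with the mouse as a replicate block and 0 to 627 with 1 mouse left out. Over the 11 alternatives, no call of the 273 genes named was reversed, with 39 calls lost and 11 gained. A change of sign of a gene called in neither fit was not counted. The median of the Kruppel-like factors, -0.18 as reported, reversed to 0.22 with DESeq2, 0.24 with the likelihood ratio test and 0.18 with edgeR's version 3 fit. With 1 mouse left out the median also crossed 0 for fatty acid handling (-0.20 to 0.092), proximal tubule (-0.051 to 0.66), integrins (-0.13 to 0.38) and oxidative phosphorylation (-0.14 to 0.049). The causes were not tested. Depth limits genes near the floor of 3 counts, which is 0.194 to 0.214 CPM in the bright and 0.209 to 0.247 CPM in the dim libraries.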

Other observations

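Families taken by the start of the gene symbol, defined after the results above were known, are given beside 28.5% of all genes called higher and 26.7% called lower. Those described were picked after their counts were seen, and the genes named are among the 3 most abundant called members of a direction. Hox transcription factors, which keep positional identity in the body, were called higher in the AS-bright tdT GEC in 13 of 15 cases and lower in none, with a median log2 change of 2.65. Hoxd8 had 16.6, 33.1 and 8.59 CPM in the AS-dim tdT and 79.1, 91.9 and 86.8 CPM in the AS-bright tdT libraries (2.30 log2), and Hoxa5 and Hoxb5 rose by 4.83 and 5.59. Of 14 adhesion GPCRs, 8 were higher and 4 lower (median 2.44). Adgrl4, a receptor of endothelial cells, had 15.7, 33.1 and 24.1 CPM in the AS-dim tdT and 1323, 1359 and 1804 CPM in the AS-bright tdT libraries (5.99 log2), and Adgrl2 and Adgrf5 rose by 5.87 and 6.79, while Adgre5 (CD97), Adgre4 and Adgre1 (F4/80) of leukocytes fell (log2 -1.85, -7.90 and -6.66). Of 15 receptor tyrosine phosphatases, 7 were higher (46.7%) and 5 lower (33.3%), with a median of 0.52. Ptprb, Ptprg and Ptpru rose by 6.10, 7.06 and 6.53, and Ptprc, Ptpro and Ptpre fell (log2 -8.26, -2.47 and -2.83).

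Of 18 phosphodiesterases 12 were higher and 4 lower (median 1.39). Pde4b, which breaks down cyclic AMP, was abundant in both populations at 2242, 2225 and 2180.4 CPM in the AS-dim tdT and 849, 561 and 1223 CPM in the AS-bright tdT libraries (-1.41 log2), and Pde12 and Pde3a rose by 3.82 and 2.55. Frizzled receptors Fzd4 and Fzd6 rose by 4.76 and 5.36, and Wnt11 was the 1 member of 9 Wnt ligands and Frizzled receptors that fell (log2 -6.43). Of 39 proteasome subunits 30 were not called (median 0.14), beside 55.2% of all genes that were called. Of 220 solute carriers 21.8% were higher and 30.5% lower, of 24 cytochrome P450 enzymes 37.5% and 29.2%, of 31 ABC transporters 25.8% and 35.5%, and of 20 potassium channels 35% and 25%.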
